A study of Bos taurus with 15 samples.

Results

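TXNIP, PDK4, UCP3 and ANGPTL4, genes that steer the choice between glucose and fatty acids in muscle, were followed in the biceps brachii of 15 cattle. They are 4 of the 15384 genes tested on the arrays. TXNIP, PDK4 and UCP3 were chosen by their log2 difference between the groups, all 3 being lower in treated animals, and ANGPTL4 was set beside them as a gene of the same switch. The group difference is described here without a test. How the genes varied between animals and with each other was not used in the choice. The lists of genes in their pathways were drawn up with earlier results of these data known.

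Each animal's total RNA was hybridised to an Agilent bovine oligonucleotide array in 1 colour. The prednisolone group comprised 8 animals, P25 to P32, which received oral prednisolone at 30 mg per head each day over 35 days. Prednisolone is a synthetic glucocorticoid. The control group comprised 7 animals, C17, C18 and C20 to C24, each labelled as a control. The treatment text attached to the controls lists Finaplix, Revalor, and Revalor combined with the glucocorticoid dexamethasone, and does not say whether any of these animals received them. All muscles were taken at the slaughterhouse, and neither breed nor age is given in the labels used here. RNA of the prednisolone animals was extracted with TRIzol and cleaned with the RNeasy MinElute kit, and RNA of the controls with the RNeasy Mini kit. Group and extraction method therefore cannot be told apart.

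Muscle burns glucose and fatty acids in proportions that change with feeding, fasting and hormones. PDK4, pyruvate dehydrogenase kinase 4, phosphorylates and inhibits the pyruvate dehydrogenase complex and so keeps pyruvate out of the citric acid cycle. TXNIP, thioredoxin-interacting protein, is an alpha-arrestin that binds thioredoxin and lowers glucose uptake by promoting the internalisation of glucose transporters. UCP3, uncoupling protein 3, is a carrier of the mitochondrial inner membrane found mainly in skeletal muscle, and its transcript is known to increase when fatty acids are abundant. ANGPTL4, angiopoietin-like 4, is a secreted inhibitor of lipoprotein lipase, the enzyme that releases fatty acids from circulating triglycerides. In rodents and humans the transcripts of PDK4, UCP3 and ANGPTL4 are known to increase with fasting, and those of PDK4 and ANGPTL4 with glucocorticoids.

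The tissue label was checked against marker genes. All 11 measured myofibre markers lay well above background on all 8 prednisolone arrays, led by myoglobin (MB) at 18.61 log2 units in prednisolone animals and 18.74 in controls, and by the slow myosin MYH7 at 17.95 and 18.05. Some arrays also carried transcripts of other tissues. Testis germ cell markers were lower in prednisolone animals for 10 of 11 genes, with protamine 1 (PRM1) at 9.51 ± 5.20 in prednisolone animals and 14.53 ± 2.69 in controls (SD, n = 8 and 7). The score of that list, the mean standardised level of its genes with values on all arrays, was highest on C20 (1.23) and P31 (1.06). The thymocyte score was highest on C17 (2.11). Group differences of the 4 genes and some of their correlations with each other are therefore also given without these arrays. Some of the arrays kept had high scores too. C24 reached 0.92 for the germ cell list, while the thymocyte score was 1.56 for P30 and 1.30 for P32. Leaving arrays out did not narrow the group difference in germ cell markers. Its median was -1.91 log2 with all arrays, -2.11 without C20 and P31, and -2.28 with C17 left out as well. In bulk muscle, fewer cells of a type and less RNA per cell cannot be told apart.

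Each of the 4 genes was represented by 1 probe, printed in 2 spots on every array. PDK4 was named from the description of its probe, which likens it to human PDK4, UCP3 through a RefSeq accession, and TXNIP and ANGPTL4 through gene identifiers. All 30 spots of each probe gave a value on the 15 arrays, and all 16 spots on the prednisolone arrays lay well above background with 0 saturated. On those arrays the signal stood 32.4 to 106 times above local background for TXNIP, 83.4 to 701 times for PDK4, 47.4 to 356 times for UCP3 and 12.0 to 151 times for ANGPTL4. Duplicate spots differed little, with an SD between 0.069 log2 for PDK4 and 0.087 for UCP3. Detection flags of the control arrays were not used here.

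TXNIP was lower in the prednisolone group and had the most even levels of the 4 genes. On the log2 intensity scale, the prednisolone animals had a lowest value of 10.79 in P29, a median of 11.47 and a highest value of 11.95 in P25. The controls had a lowest value of 11.85 in C17, a median of 12.15 and a highest value of 12.61 in C20. All 8 prednisolone animals lay below the control median and 5 lay below the lowest control, so the groups overlapped only between 11.85 and 11.95. Among the 11298 genes with values on all arrays, 172 (1.52%) had all prednisolone animals below the control median, and 0 (0.0%) had groups that did not overlap. TXNIP averaged 11.43 ± 0.48 in prednisolone animals and 12.25 ± 0.29 in controls (SD, n = 8 and 7), a difference of -0.82 log2, or a level 0.566 times that of controls.

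PDK4 had the largest difference in means of the 4 genes, and its groups overlapped over a wide range. Its level in prednisolone animals ran from 12.16 in P26 through a median of 13.35 to 14.71 in P31. In controls it ran from 13.25 in C24 through a median of 14.51 to 15.20 in C20. Below the lowest control lay 4 of the 8 prednisolone animals, P25, P26, P27 and P29, while P30, P31 and P32, at 14.27 to 14.71, lay between the controls C21 at 13.79 and C18 at 14.95. P31 was the 1 prednisolone animal above the control median. PDK4 averaged 13.46 ± 0.92 in prednisolone animals and 14.41 ± 0.68 in controls (SD, n = 8 and 7), a difference of -0.95 log2, or 0.518 times the control level.

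UCP3 was also lower on average in prednisolone animals, and again its groups overlapped. Its level in prednisolone animals ran from 11.23 in P26 through a median of 12.99 to 13.74 in P31. In controls it ran from 12.57 in C23 through a median of 13.49 to 14.62 in C18. P26 and P27, at 11.23 and 11.74, were the 2 prednisolone animals below the lowest control, and 7 of 8 lay below the control median, P31 being the exception. UCP3 averaged 12.75 ± 0.85 in prednisolone animals and 13.48 ± 0.72 in controls (SD, n = 8 and 7), a difference of -0.72 log2, or 0.605 times the control level.

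ANGPTL4 was not chosen for being lower, and its groups overlapped almost completely. Its level in prednisolone animals ran from 9.20 in P26 through a median of 10.97 to 12.55 in P28. In controls it ran from 9.14 in C17 through a median of 11.21 to 14.07 in C21. The lowest and the highest of the 15 animals were thus both controls, and 4 of the 8 prednisolone animals lay below the control median. It averaged 10.79 ± 1.26 in prednisolone animals and 11.50 ± 1.45 in controls (SD, n = 8 and 7), a difference of -0.71 log2 in means but of -0.24 in medians.

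**Figure D1:**
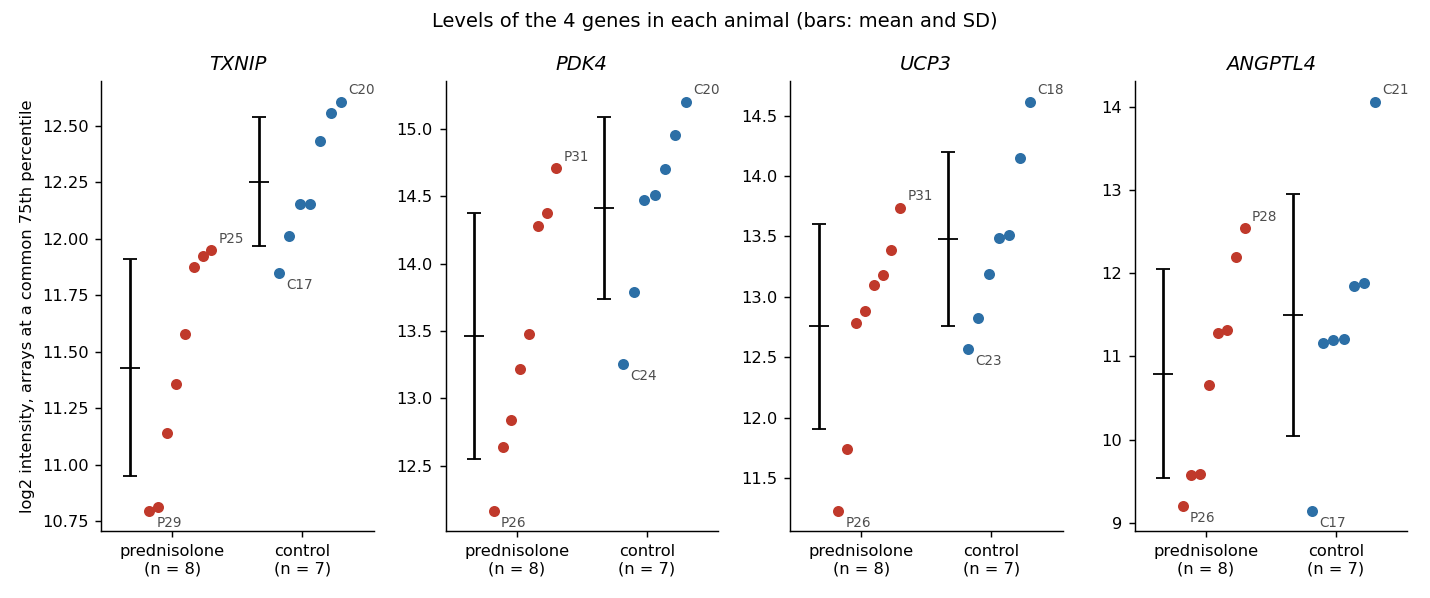
Log2 intensity of TXNIP, PDK4, UCP3 and ANGPTL4 in each animal (points; prednisolone, n = 8, left of control, n = 7), with the group mean and SD as bars and the lowest and highest animals named. TXNIP overlaps only between 11.85 and 11.95, whereas ANGPTL4 runs from 9.20 to 12.55 in prednisolone animals and from 9.14 to 14.07 in controls.

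The lowest animal was not the same for all 4 genes. All 4 were below the control median in P26, P27, P29 and P30, 3 of the 4 were below it in P25, P28 and P32, and in P31 TXNIP alone was. P26 had the lowest PDK4, UCP3 and ANGPTL4 of the prednisolone group but a middle TXNIP level of 11.36. P29 and P32 had the lowest TXNIP, at 10.79 and 10.81, and P32 had a PDK4 level of 14.38, near the control median. Among controls, C17 had the lowest TXNIP and ANGPTL4 of its group with a PDK4 level of 14.70, and C18 had none of the 4 genes below the control median.

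The file headers give slides and scan days for the prednisolone arrays only. P25 and P26 shared a slide, were the only arrays of their scan day and had the 2 lowest PDK4 levels. They differed by 0.48 log2 for PDK4, 1.87 for UCP3 and 2.11 for ANGPTL4. P27 and P28 shared a slide and differed by 0.26 log2 for PDK4, 1.05 for UCP3 and 2.97 for ANGPTL4. P29 and P30 shared a slide and differed by 1.44 log2 for PDK4, 0.30 for UCP3 and 1.08 for ANGPTL4. For TXNIP the pairs differed by 0.59, 0.73 and 0.79. Mean PDK4 on these slides was 12.40, 13.35 and 13.56, beside 14.71 in P31 and 14.38 in P32. Mean UCP3 was 12.16, 12.26 and 13.03, beside 13.74 in P31 and 13.39 in P32. P31 and P32 were alone on their slides among these arrays, and P32 alone on its scan day. The part of slide and scan day in the levels was not tested, and those of the controls were not used here.

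The group difference of ANGPTL4 moved by more than 1.5 times with single animals left out, and those of the other 3 genes by less. Leaving out each animal in turn gave TXNIP differences from -0.90 log2 without P25 to -0.73 without P29, PDK4 differences from -1.14 without C24 to -0.76 without P26, and UCP3 differences from -0.88 without C23 to -0.51 without P26. The ANGPTL4 difference was -1.10 without C17 and -0.28 without C21. Without C20 and P31 together the differences were -0.83 for TXNIP, -0.99 for PDK4, -0.75 for UCP3 and -0.83 for ANGPTL4. With C17 left out as well, ANGPTL4 stood at -1.31 and the other 3 genes between -0.91 and -0.79.

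**Figure D2:**
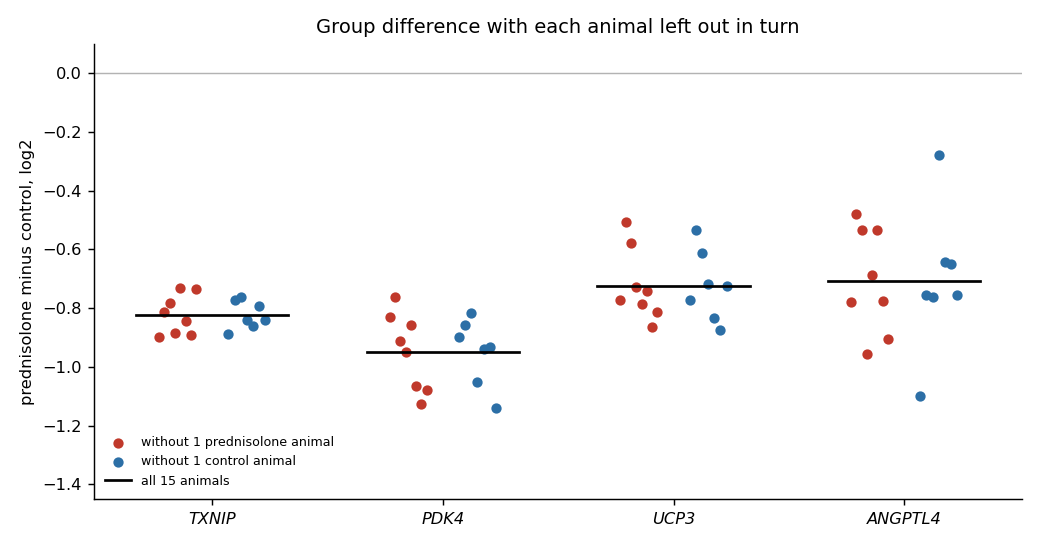
Difference between group means (prednisolone minus control, log2) for each gene with 1 animal left out at a time (points; without a prednisolone animal left of without a control) and with all 15 animals (black line). TXNIP keeps between -0.90 and -0.73, and ANGPTL4 moves between -1.10 and -0.28.

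Animal-to-animal spread was wide for 3 of the genes. The SD within groups, pooled over both groups, was 0.81 log2 for PDK4, 0.79 for UCP3 and 1.35 for ANGPTL4, against 0.40 for TXNIP. Among the 10041 genes with values on all arrays that lay well above background on all prednisolone arrays, called bright genes below, the median SD was 0.34 and the 90th percentile 0.69. A smaller SD than theirs was found for 93.4% of bright genes in PDK4, 92.8% in UCP3, 98.3% in ANGPTL4 and 63.9% in TXNIP. The pooled SD was 5.00 times the SD of duplicate spots for TXNIP and 16.6 times for ANGPTL4, so the spread between arrays was far larger than that between spots of 1 array. From the lowest to the highest animal, ANGPTL4 spanned 10.2-fold in the prednisolone group and 30.4-fold in controls. PDK4 spanned 5.85-fold in the prednisolone group and 3.86-fold in controls, UCP3 5.70-fold and 4.13-fold, and TXNIP 2.23-fold and 1.69-fold.

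Whether the 4 genes moved together was asked across animals after removing the group means, which leaves the chosen difference out. None of the 6 pairs passed the test. PDK4 and UCP3 had the highest correlation (Pearson r = 0.54, permutation p = 0.0538, Benjamini-Hochberg adjusted over the 6 pairs 0.323; Spearman rho = 0.55, permutation p = 0.0412, adjusted 0.247; 15 animals, two-sided). P26 was low for both genes and P31 high for both within the prednisolone group. The correlation was 0.66 among prednisolone animals (n = 8, exact permutation p = 0.0725, adjusted 0.218) and 0.31 among controls (n = 7, exact permutation p = 0.499, adjusted 0.748). Without P26 and C24, the animals farthest from the median of PDK4, r was 0.42 (permutation p = 0.145), and without C20 and P31 it was 0.39.

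UCP3 and ANGPTL4 had r = 0.34 over the 15 animals (permutation p = 0.232, adjusted 0.634; rho = 0.35, p = 0.223, adjusted 0.491). Among prednisolone animals r was 0.68 (n = 8, exact permutation p = 0.0708, adjusted 0.218), and among controls it was -0.058 (n = 7, exact permutation p = 0.957). Without P26 and C18 the value over both groups was 0.25. The difference between the 2 groups in this correlation was not tested. PDK4 and ANGPTL4 had r = 0.045 (permutation p = 0.873, adjusted 0.873; rho = 0.071, p = 0.813), with 0.37 among prednisolone animals and -0.39 among controls, and -0.21 without P26 and C24.

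TXNIP followed none of the other 3 genes closely. Its r was 0.27 with UCP3 (permutation p = 0.367, adjusted 0.634; rho = 0.33, p = 0.246), 0.19 with PDK4 (permutation p = 0.528, adjusted 0.634; rho = 0.14, p = 0.660) and 0.18 with ANGPTL4 (permutation p = 0.514, adjusted 0.634; rho = 0.27, p = 0.358). Without P25 and P31, the animals farthest from the median of TXNIP, these became 0.078, 0.19 and 0.11. Without C20 and P31 the value with PDK4 was -0.067. Among controls alone TXNIP had r = 0.56 with UCP3 (n = 7, exact permutation p = 0.195) and 0.44 with PDK4 (n = 7, exact permutation p = 0.343).

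**Figure D3:**
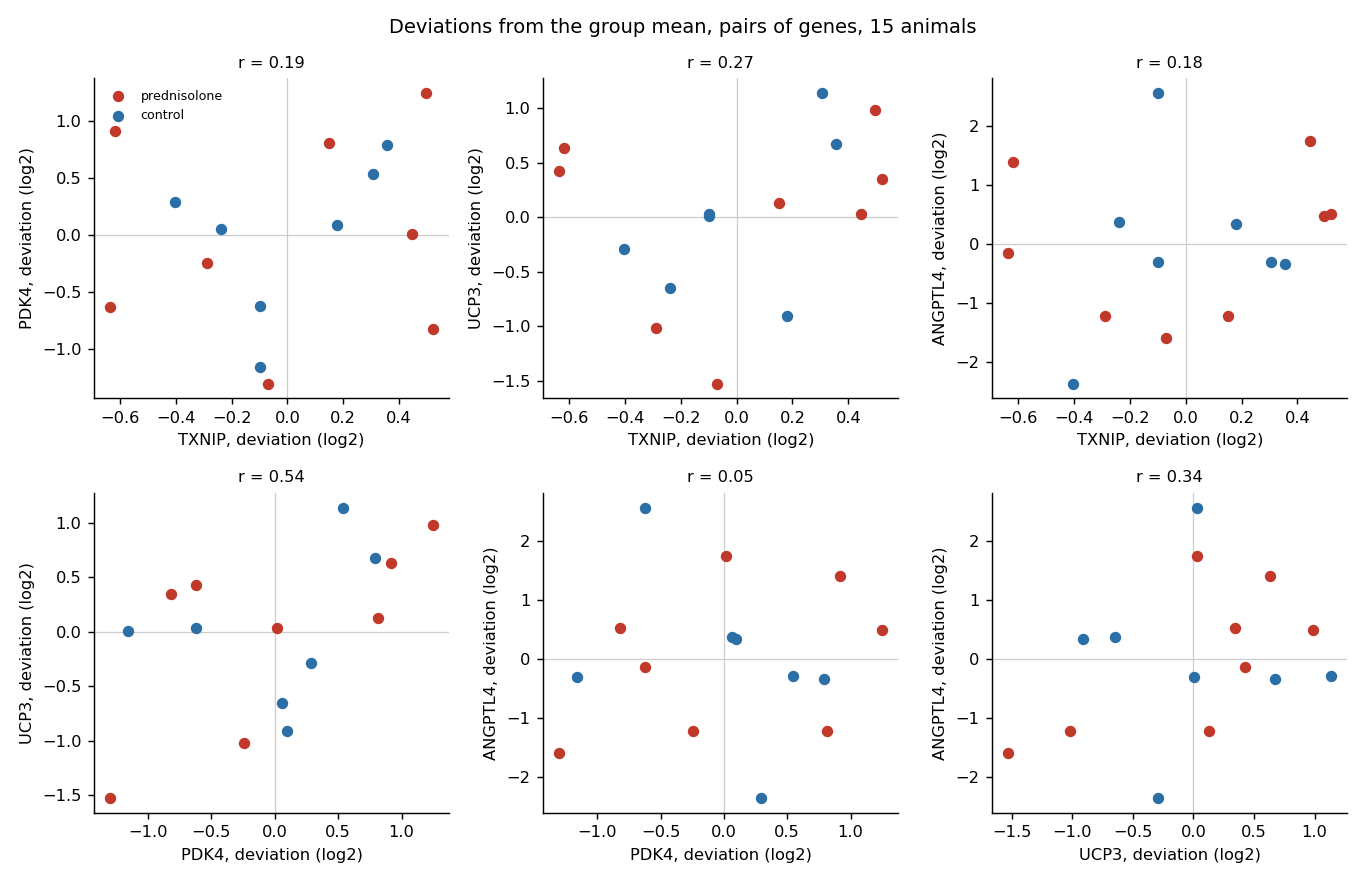
Deviations from the group mean (log2) for the 6 pairs of genes, 1 point per animal (prednisolone, n = 8, and control, n = 7). PDK4 against UCP3 has the highest r, 0.54, and PDK4 against ANGPTL4 the lowest, 0.045.

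Set against all bright genes, the 4 genes were not each other's closest followers. Ranked by r with PDK4, UCP3 came 408th of 10040 genes, and ranked by r with UCP3, PDK4 came 436th. For ANGPTL4, UCP3 came 979th and PDK4 4307th. The highest place of another of the 4 genes on the TXNIP ranking was that of UCP3, 1921st. The 95th percentile of r over bright genes lay at 0.47 for TXNIP, 0.52 for PDK4, 0.52 for UCP3 and 0.43 for ANGPTL4, so the PDK4 and UCP3 pair alone stood above it.

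The genes whose levels ran most like each of the 4 are given by their r over the 15 animals, as a description, since they are the extremes of 10040 genes on shared arrays. Closest to UCP3 were PLCL2 (0.88), ACTR8 (0.86), FLJ36031 (0.85) and the glycogen phosphorylase kinase subunits PHKA1 (0.85) and PHKB (0.84). Farthest from UCP3 were INSIG1 (-0.90), a sterol-regulated protein of the endoplasmic reticulum, and C9orf3 (-0.88). Closest to PDK4 were the DNA replication helicase subunit MCM5 (0.88), AKNA (0.86), the Mediator subunit MED26 (0.84), the splicing factor SF3B4 (0.81) and ERMARD (0.80), and farthest were the chaperone DNAJB5 (-0.89) and C1QTNF5 (-0.89). FLJ36031, C9orf3 and AARSL, which follows, are names from the array annotation that the RefSeq table does not hold.

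TXNIP ran closest to GPD2 (0.85), the mitochondrial glycerol-3-phosphate dehydrogenase, to LOC518775 (0.82), to the anticoagulant protein S gene PROS1 (0.80), to the ectonucleotidase NT5E (0.77) and to the anchoring protein AKAP12 (0.75). It ran opposite to the transcriptional cofactor ZFPM1 (-0.89) and the axon guidance receptor ROBO3 (-0.85). ANGPTL4 ran closest to ZNF7 (0.84), FBXO31 (0.84), AARSL (0.81), SMYD4 (0.81) and PEAR1 (0.77), and opposite to the ubiquitin ligase HERC4 (-0.75) and to APOLD1 (-0.74).

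**Figure D4:**
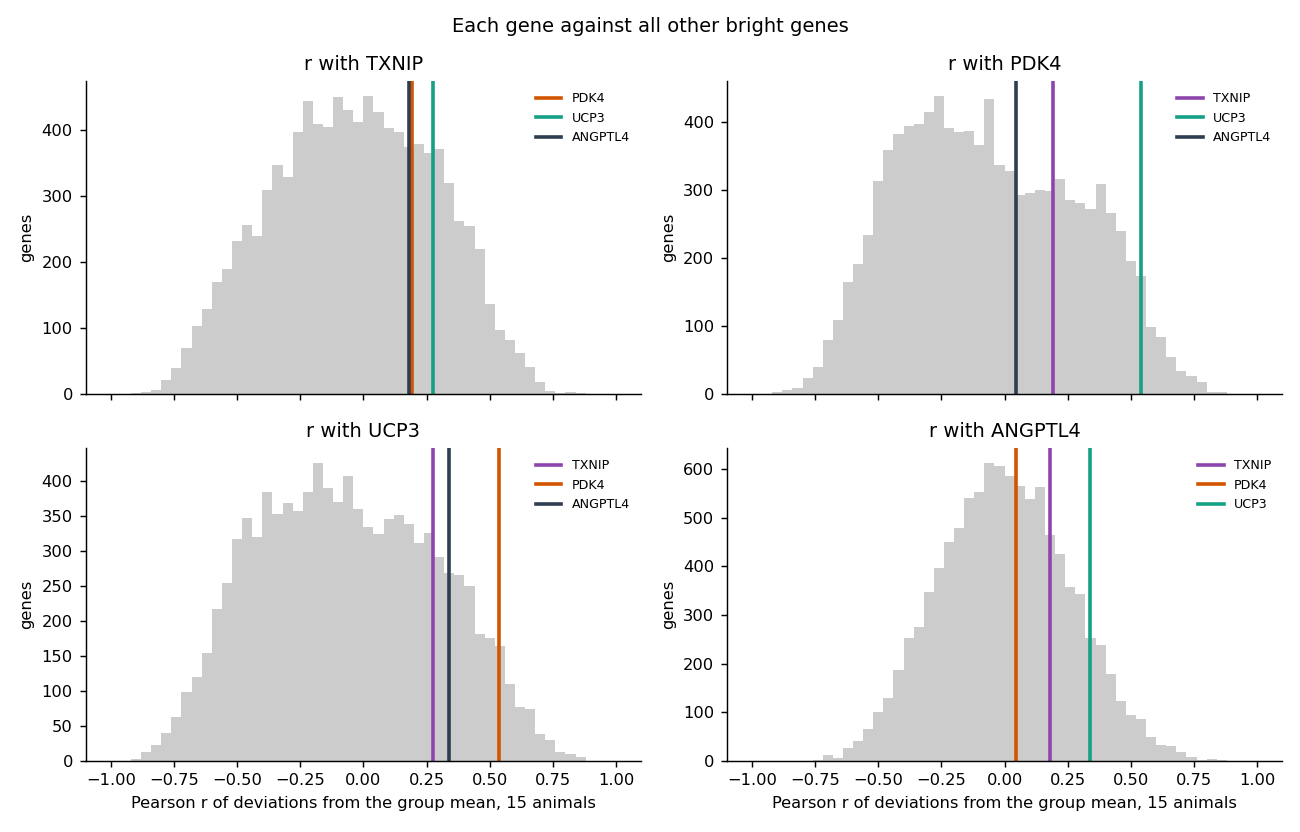
Distribution over bright genes of Pearson r with each of the 4 genes (horizontal axis, deviations from the group mean in 15 animals; vertical axis, number of genes), with the other 3 genes as vertical lines. UCP3 and PDK4 stand in each other's upper tail at 0.54, and the remaining lines lie between 0.045 and 0.34.

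Markers of other cell types and array measures were set beside the 4 genes in the same way, in 36 relations. After adjustment over these, the smallest p for Pearson's r was 0.373, and 4 relations had an unadjusted p under 0.05. PDK4 followed the thymocyte score (r = 0.60, permutation p = 0.026, adjusted 0.373; rho = 0.67, p = 0.0101, adjusted 0.181), and r was 0.49 without P26 and C24. It ran against the endothelial score (r = -0.52, permutation p = 0.0236, adjusted 0.373; rho = -0.57, p = 0.0142, adjusted 0.181), with -0.51 without P26 and C24. It followed the 75th percentile of the array before scaling (r = 0.54, permutation p = 0.0333, adjusted 0.373; rho = 0.50, p = 0.0577), with 0.58 without P26 and C24. For UCP3 and the same percentile r was 0.49 (permutation p = 0.0750, adjusted 0.540; rho = 0.63, p = 0.0151, adjusted 0.181), with 0.68 without P26 and C18. C20 and P31 had the highest percentile of their groups, at 10.76 and 10.71, and stayed in both leave-outs. They also had the highest PDK4 of their groups, and the relations to the percentile were not tested without them. UCP3 ran against the adipocyte score (r = -0.56, permutation p = 0.0415, adjusted 0.373; rho = -0.48, p = 0.0787), and r was -0.38 without P26 and C18. With the endothelial score UCP3 had rho = -0.55 (permutation p = 0.0407, adjusted 0.366). With the testis germ cell score r was 0.47 for PDK4 (permutation p = 0.104, adjusted 0.581) and 0.30 for UCP3, against 0.16 for TXNIP and 0.018 for ANGPTL4. It was 0.67 for PDK4 without P26 and C24, and 0.57 for UCP3 without P26 and C18. Both leave-outs kept C20 and P31, which had the highest germ cell scores and the highest PDK4 of their groups. How far these values rest on C20 and P31 was not tested.

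The scores of the marker lists ranged widely within each group and overlapped between the groups. Adipocyte markers were higher in prednisolone animals for 10 of 11 genes, with the score between -1.29 and 0.91 in prednisolone animals and between -1.12 and 0.53 in controls. Of the 11 genes, 7 lay well above background on all 8 prednisolone arrays, and leptin (LEP) on 0 of 8. The 2 brightest, ADIRF and SCD, differed by -0.02 and 0.11 log2. Endothelial markers were lower for 7 of 10 genes, with scores from -0.69 to 0.39 in prednisolone animals and from -1.28 to 1.61 in controls. They were lower for 7 of 10 without C20 and P31, and for 10 of 10 without C17, C20 and P31 and with array weights. Thymocyte markers were lower for 6 of 8 genes, with scores from -0.96 to 1.56 in prednisolone animals and from -0.92 to 2.11 in controls. This direction turned: 3 of 8 were lower without C20 and P31, 1 of 8 without C17, C20 and P31, and 2 of 8 with array weights. RAG1 lay well above background on 0 of 8 prednisolone arrays. Testis germ cell markers had a median difference of -1.91 log2. Of 11 genes, 3 (27.3%) were lower at an unadjusted limma p under 0.05, against 1.6% of all genes, and 0 passed after adjustment. Germ cell scores ran from -1.09 to 1.06 in prednisolone animals and from -0.44 to 1.23 in controls. Leukocyte markers were lower for 7 of 11 genes, but for 5 of 10 without C20 and P31, 4 of 10 without C17, C20 and P31, and 3 of 11 with array weights. Hepatocyte markers were higher for 11 of 12 genes, with a median difference of 0.97 log2. Of the 12 genes, 5 lay well above background on all 8 prednisolone arrays. The 2 brightest, APOA1 and APOA2, differed by -0.26 log2 (95% interval -1.40 to 0.88) and 0.12 (-0.15 to 0.39). The part of these cell types in the levels of the 4 genes was not tested.

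The partners of each gene were read from lists of related genes, against a background in which limma's moderated test called 0 of 15384 genes (0.0%) at an adjusted p of 0.05. At an unadjusted p under 0.05, 246 genes (1.6%) were lower and 248 (1.61%) higher in prednisolone animals. The exact Wilcoxon test had 610 of 20894 probes at an unadjusted p under 0.05 and 0 after adjustment, a threshold that 8 against 7 animals can hardly reach over so many probes. The median difference over all genes was 0.010 log2. The smallest adjusted p in every list below was 0.993.

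The pyruvate dehydrogenase complex and its regulators, the setting of PDK4, lay near the middle of all genes. Of 13 measured members 8 were lower and 5 higher in prednisolone animals, 0 passed the test, and the median difference was -0.019. The sister kinase PDK2 was at 13.10 ± 0.32 in prednisolone animals and 13.10 ± 0.16 in controls (SD, n = 8 and 7), a difference of 0.00 (95% interval -0.30 to 0.30). The mitochondrial pyruvate carrier subunits MPC1 and MPC2 differed by -0.04 and 0.10. The phosphatase PDP1, which reverses what PDK4 does, differed by -0.24 (95% interval -0.71 to 0.23), with -0.03 on its dimmer probe, and the catalytic subunit PDHA1 by -0.16 (-0.57 to 0.24). The other kinases, outside the naming rule and given for completeness after their values were seen, differed by 0.05 (PDK1) and 0.03 (PDK3).

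The thioredoxin system and the alpha-arrestins, the relatives of TXNIP, were split evenly, with 8 of 16 lower, 8 higher, 0 past the test and a median of 0.0085. ARRDC3, an alpha-arrestin, was at 9.96 ± 0.38 in prednisolone animals and 10.32 ± 0.25 in controls (SD, n = 8 and 7), a difference of -0.36 (95% interval -0.72 to 0.00). MLX, the partner of the glucose-sensing factors that drive TXNIP transcription, was at 6.61 ± 0.25 in prednisolone animals and 6.19 ± 0.39 in controls (SD, n = 8 and 7), a difference of 0.42 (95% interval 0.06 to 0.78). It was named for the smallest p of its list and was the 1 member of 16 with an unadjusted limma p under 0.05. Of all genes, 1.61% were higher at that threshold and 1.6% lower. Thioredoxin (TXN) differed by -0.15 (-0.62 to 0.31), the mitochondrial form TXN2 by 0.03 and ARRDC2 by -0.28 (-1.09 to 0.53). The point farthest to the left on the plot of gene lists is ARRDC5, named after its values were seen, which differed by -1.96 with values in 7 prednisolone animals and 6 controls and lay well above background on 5 of 8 prednisolone arrays.

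Genes of glucose uptake and trapping, the step that TXNIP restrains, had 7 of 15 members lower, 8 higher, 0 past the test and a median of 0.036. The insulin-responsive glucose transporter SLC2A4 was at 13.71 ± 0.44 in prednisolone animals and 13.77 ± 0.21 in controls (SD, n = 8 and 7), a difference of -0.06 (95% interval -0.45 to 0.33). PFKFB3, which makes an activator of glycolysis, differed by -0.09 (-1.10 to 0.91), hexokinase 1 (HK1) by -0.20 (-0.93 to 0.53), the insulin receptor INSR by 0.46 (-0.25 to 1.17) and the kinase AKT2 by 0.22 (-0.17 to 0.61).

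Inner membrane carriers related to UCP3 had 5 of 11 members lower, 6 higher, 0 past the test and a median of 0.0086. The adenine nucleotide carriers SLC25A4 and SLC25A6 differed by -0.16 (95% interval -0.43 to 0.10) and 0.01 (-0.32 to 0.34), the oxoglutarate carrier SLC25A11 by -0.06 and SLC25A30 by 0.30 (-0.08 to 0.69). UCP1, the uncoupling protein of brown fat, lay well above background on 0 of 8 prednisolone arrays and is given no difference.

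Lipoprotein lipase, its partners and the angiopoietin-like proteins, the setting of ANGPTL4, had 9 of 19 members lower, 10 higher, 0 past the test and a median of 0.026. Lipoprotein lipase itself (LPL) was at 12.40 ± 0.54 in prednisolone animals and 12.47 ± 0.24 in controls (SD, n = 8 and 7), a difference of -0.08 (95% interval -0.54 to 0.39). The lipoprotein receptor VLDLR differed by 0.07, the fatty acid transport protein SLC27A1 by 0.03, hormone-sensitive lipase (LIPE) by -0.48 (-1.33 to 0.36) and ANGPTL6 by -0.72 (-1.82 to 0.39).

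Fatty acid genes that respond to PPAR receptors, as PDK4, UCP3 and ANGPTL4 do in rodents and humans, were mostly higher. Of 26 measured members 21 were higher and 5 lower in prednisolone animals, against 8020 higher and 7364 lower of all genes. Of these, 0 passed the test, and the median was 0.068. The fatty acid binding protein FABP3 differed by 0.20 (95% interval -0.60 to 0.99), catalase (CAT) by 0.27 (-0.05 to 0.59), the acyl-CoA dehydrogenase ACADVL by 0.01, the acyl-CoA synthetase ACSL1 by -0.10 (-0.49 to 0.30) and malonyl-CoA decarboxylase (MLYCD) by -0.36 (-0.74 to 0.02). With array weights 15 members were higher, with a median of 0.028.

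Transcriptional regulators of fuel choice were split 11 to 11, with 0 past the test and a median of 0.0028. The coactivator PPARGC1A, which switches on mitochondrial genes in muscle, was at 14.19 ± 1.24 in prednisolone animals and 14.48 ± 1.10 in controls (SD, n = 8 and 7), a difference of -0.29 (95% interval -1.50 to 0.93), with -0.08 on its dimmer probe. The corepressor NCOR1 differed by 0.38 (-0.01 to 0.77), with 0.15 and -0.04 on its 2 dimmer probes, and RXRB, a receptor partner, by -0.02. ESRRB lay well above background on 2 of 8 prednisolone arrays and is given no difference.

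Other glucocorticoid-responsive genes were mostly lower, with 18 of 22 lower and 4 higher, against 7364 lower and 8020 higher of all genes. Of the 22, 0 passed the test, and the median was -0.17. The kinase SGK1 was at 10.26 ± 0.47 in prednisolone animals and 11.05 ± 0.66 in controls (SD, n = 8 and 7), a difference of -0.79 (95% interval -1.39 to -0.19) on the brighter of its 2 probes, with 0.05 on the other, dimmer probe. ERRFI1, an inhibitor of the epidermal growth factor receptor, was at 8.95 ± 0.68 in prednisolone animals and 8.25 ± 0.61 in controls (SD, n = 8 and 7), a difference of 0.69 (0.01 to 1.37). SGK1 and ERRFI1 were named for the smallest p of the list. At an unadjusted limma p under 0.05, SGK1 was the 1 member of 22 lower and ERRFI1 the 1 higher. Of all genes, 1.6% were lower and 1.61% higher at that threshold. The muscle ubiquitin ligases TRIM63 and FBXO32 differed by -0.06 (-0.71 to 0.60) and 0.27 (-0.32 to 0.86), and the clock gene PER1 by 0.14 (-0.28 to 0.56). The count depended on a few arrays: 12 of 22 members were lower without C17, C20 and P31, with a median of -0.074, and 12 with array weights, with a median of -0.041.

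**Figure D5:**
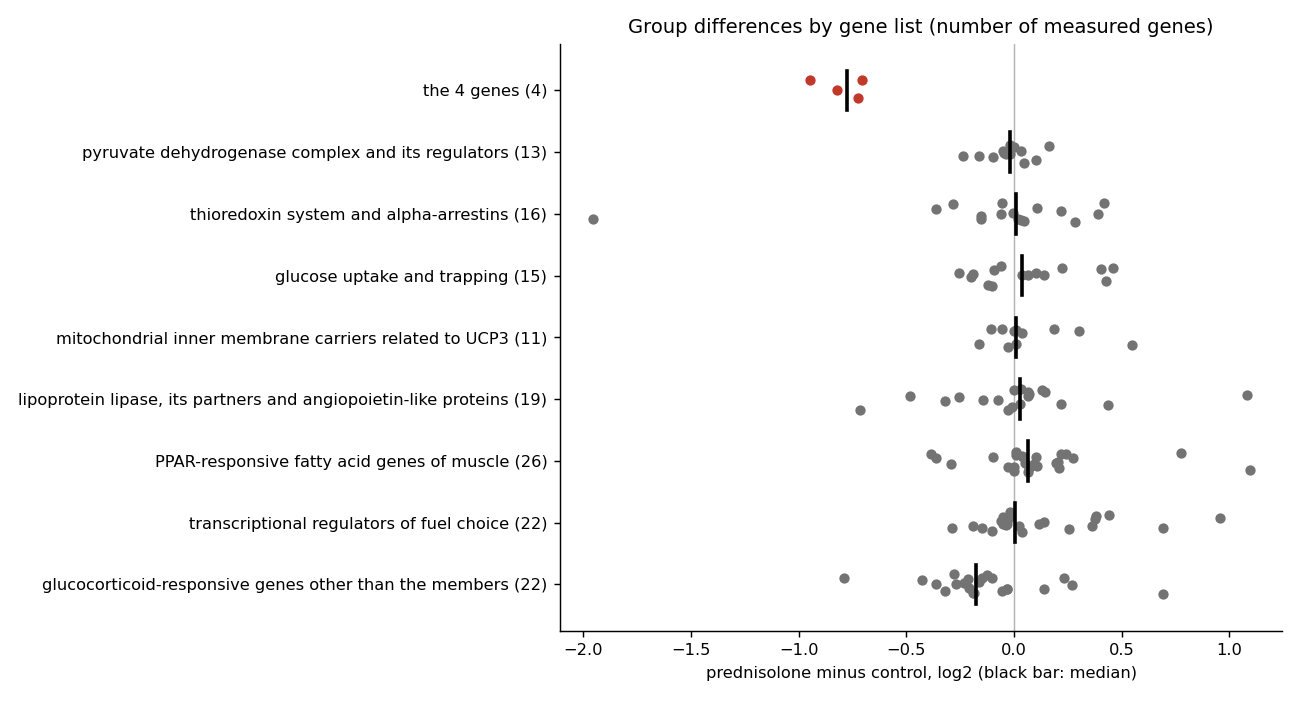
Group difference (prednisolone minus control, log2) of every measured gene in each list (points), with the number of genes in brackets and the median as a black bar. The list medians lie between -0.17 for other glucocorticoid-responsive genes and 0.068 for PPAR-responsive fatty acid genes. The 4 genes lie between -0.95 and -0.71, where the choice of 3 of them for this difference places them.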

How the data were processed

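RNA of 15 biceps brachii samples was hybridised to 1-colour arrays. The deposited table holds 1 linear intensity per spot; per the file headers of the 8 prednisolone arrays, Feature Extraction 9.5.1.1 made background-subtracted, detrended signals, and R 2.11.1 is named per the submitters' processing notes. The method that scaled the arrays is not stated in the labels or headers. The deposited intensities were turned to log2 here, each array was shifted to a common 75th percentile over the 14324 probes with values on all arrays, and spots of a probe were averaged. Before the shift the 75th percentiles lay between 10.56 and 10.76, and 72.1% to 87.4% of spots had a value. The number of arrays limits the precision.

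Of 21475 probes, 17358 were named from the array annotation and the RefSeq table (9990 by gene identifier, 3398 by accession, 2811 by description), and the brightest probe stood for a gene. Probes with at least 3 values per group (20894) were compared with limma 3.58.1 in R 4.3.3, with Benjamini-Hochberg adjustment. Intervals are 95% intervals from limma. Correlations used deviations from group means, with 100000 permutations within groups (scipy 1.17.1), so that p cannot fall below 1e-05, or exact permutations within 1 group. A marker score is the mean of standardised levels over the genes of a list with values on all arrays. For some lists it therefore rests on fewer genes than the counts of markers higher and lower. Besides the 4 genes, the genes named are the 3 brightest of each pathway list, its 2 with the smallest unadjusted p, and per gene the 5 most and 2 least correlated genes. Of the marker lists, genes among the 2 brightest are named. PDK1, PDK3, ARRDC5, LEP, RAG1, PZP and ZNF696 are named outside this rule. A gene that this rule names is not reported here. The 4 genes and all lists were chosen with earlier results of these data known. Where nothing says that animals came from separate herds or pens, p-values measure the spread between these animals only.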

Additional observations from a re-analysis of the deposited data

Results flagged for a closer look

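Single animals far from the rest of their group were looked for in 190 groups of values, of which 9 stood apart where chance gives about 5%, or 9.5. None of the 4 genes was among them. P31 had the highest hexokinase 1 (HK1) of the prednisolone group, at 12.56 log2 with the next animal at 11.13, and the highest apolipoprotein APOA1, at 12.18 with the next at 10.20. Its adipocyte marker score was the lowest of the prednisolone group, at -1.29 with the next at -0.045. RXRB was lowest on P26 among prednisolone animals, at 12.86 with the next at 13.28, and lowest on C20 among controls, at 12.80 with the next at 13.23. C17 had the lowest LOC518775 among controls, at 6.09 with the next at 6.58, and the highest ZFPM1, at 5.13 with the next at 4.61; both genes were among those most or least like TXNIP. APOLD1 was lowest on C21 among controls, at 8.13 with the next at 9.47, and C21 had the highest ANGPTL4. The 75th percentile before scaling was highest on C20 among controls, at 10.76 with the next at 10.64.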

How the results depend on the processing

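The differences of the 4 genes kept their sign in all 23 alternatives run for each. Over 4 other scalings (values as deposited, equal medians, quantile normalization and cyclic loess) they lay between -0.84 and -0.80 for TXNIP, -0.97 and -0.93 for PDK4, -0.75 and -0.70 for UCP3, and -0.73 and -0.66 for ANGPTL4. With array weights, chosen after seeing the data, they were -0.82, -0.98, -0.57 and -1.01. The count of genes called was 0 under all scalings and from 0 to 1 with 1 animal left out: without P31 it was 1 (PZP, limma adjusted p = 0.0274), without C23 it was 1 (ZNF696, 0.0421), without C20 and P31 together 1 (PZP, 0.0397) and without C17, C20 and P31 together 1 (PZP, 0.0338). PZP lay well above background on 3 of 8 prednisolone arrays; both genes were chosen for naming once their values had been seen, and the cause was not tested. Probes at an unadjusted p under 0.05 numbered 699 with all animals, 1470 without P31, 1137 without C20 and P31, 1262 without C17, C20 and P31, and 1357 with array weights. The correlation of TXNIP and PDK4 turned to -0.067 without C20 and P31 and to -0.013 without C17, C20 and P31. That of PDK4 and ANGPTL4 lay between -0.15 without P26 and 0.22 without C21, and was also below 0 without P31 (-0.0033) and without P32 (-0.064); the cause was not tested. The correlation of PDK4 and UCP3 lay between 0.37 and 0.61 with 1 animal left out, with an adjusted permutation p from 0.201 to 0.781. Over 8 alternatives the list medians stayed below 0 for other glucocorticoid-responsive genes (-0.19 to -0.041) and above 0 for PPAR-responsive fatty acid genes (0.028 to 0.096), and those of the other 6 lists crossed 0 within -0.13 to 0.076. The median over all genes moved as well. It was 0.048 with quantile normalization, 0.032 with equal medians and 0.00093 as deposited, where the PPAR-responsive list had 0.069, 0.089 and 0.059. No paired analysis was possible because the animal numbers are not shared between the groups.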
